A study of Mus musculus with 6 samples.

Results

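The 9 chemokine receptors described here are Ccr1, Ccr2, Ccr3, Ccr7, Cxcr2, Cxcr3, Cxcr4, Cxcr6 and Cx3cr1. They were found by gene symbol in the probe table of a 2-colour Agilent array, with older synonyms allowed, and each was measured by 1 probe. The 9 genes stand among 25721 genes with a symbol and 35027 features in all (1 feature is the brightest probe of a gene, or a probe with no symbol). The 8 probes other than that of Ccr3 were also matched to a RefSeq transcript accession. The Ccr3 probe carries the design identifier MMT00026375, so its gene rests on the symbol alone.

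Aortas of 3 ApoE KO mice, which lack apolipoprotein E, and of 3 wild type (WT) mice were compared, both fed a high-fat diet (HFD). The labels give C57BL6 db/+ as the genetic background of the measured RNA in both groups. They give an age of 32 weeks for ApoE KO and 24 weeks for WT. The protocol describes a diet of 16 weeks begun at an age of 8 weeks in both groups, which gives the WT age only. It records atherosclerotic lesions in the knockout aortas and none in the C57BL6 aortas. The name given to the source of the measured RNA reads db/+ at 9 weeks on all 6 arrays, with 1 number shared by WT replicates 2 and 3. Headings of 3 arrays that name no group speak of a vehicle and another diet length. Genotype and age cannot be told apart in this comparison, nor can diet length or a vehicle if those differed. Each aorta's RNA was labelled with Cy5 and hybridised against a common Cy3 reference, RNA of WT C57BL6 aortas on the same diet. The values below are log2 ratios to that reference, so 0 means a level equal to it. The labels call the samples biological replicates and do not say whether an array holds 1 aorta or a pool.

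Chemokine receptors are G protein-coupled receptors of leukocytes and some tissue cells that steer movement along gradients of chemokines, small secreted proteins. Binding of a chemokine activates inhibitory G proteins of the Gi class, which leads to phosphoinositide 3-kinase gamma, Rac GTPases and changes of the actin skeleton. Arrestins then end the signal and draw the receptor into the cell. In atherosclerosis, monocytes are known to enter the artery wall through Ccr2 and Cx3cr1, and Cxcr4 is known for the retention and homing of leukocytes and progenitor cells.

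Apoe, the targeted gene, was at log2 ratios of -1.31, -1.21 and -1.31 in the ApoE KO aortas, against 0.00, -0.32 and 0.12 in the WT aortas, with an adjusted p of 0.00649 in limma. The direction follows the labels. The sources used here do not say whether its probe targets deleted sequence. Between 39480 and 39551 probes were measured on an array, and the small number of arrays limits the precision. WT replicate 3 had the widest log2 ratios of its group (SD 0.135 over all features, against 0.075 and 0.091 in WT replicates 1 and 2), and the ApoE KO arrays lay between 0.24 and 0.264. All 6 smooth muscle markers of the aortic wall were measured, with levels from 0.227 for Myocd to 189 for Acta2. At an adjusted p under 0.05 in limma 5 of them fell in the knockout and 0 rose. Among all features 8.00% fell and 6.73% rose at that threshold. In a separate fit of features with a level of at least 0.5, 24.5% fell and 19.0% rose. The Myh11 call was lost after quantile normalization between arrays (adjusted p 0.0524 in limma).

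Of the 9 receptors, 4 rose and 0 fell in the ApoE KO aortas (adjusted p under 0.05 in limma, two-sided, over all features). Among all features, 6.73% were called higher and 8.00% lower. The receptors that rose were Cxcr4, Cxcr6, Cxcr2 and Cxcr3, all of them receptors of CXC chemokines, while no call was made for Ccr1, Ccr2, Ccr3, Ccr7 or Cx3cr1. The probes of Ccr1, Ccr2 and Ccr7 were dim (reference intensities of 0.0167, 0.0433 and 0.107 in arbitrary units). Those of Cxcr6 (0.1) and Cxcr2 (0.157), which were called, were also dim. The 95% interval of the Ccr7 log2 fold change, -0.05 to 0.27, lay below those of the 4 receptors that rose. A split by chemokine class was not tested. At an unadjusted p under 0.05 in limma, 5 were higher and 2 lower. The share of all features at that unadjusted threshold was not counted. Such counts, here and for the lists below, therefore have no background beside them. The median log2 fold change, ApoE KO over WT, was 0.43 over the 9 receptors and -0.020 over all features. With 9 members that median is the value of Ccr2, which its dim probe does not resolve and which was 0.29 without WT replicate 3. The ApoE KO values lay above all WT values for 5 receptors, a pattern found in 11.0% of all features. They lay below all WT values for Ccr3 and Cx3cr1, as they did for 18.4% of all features. In whole aortas, more cells that carry a receptor and more receptor RNA per cell cannot be told apart.

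**Figure D1:**
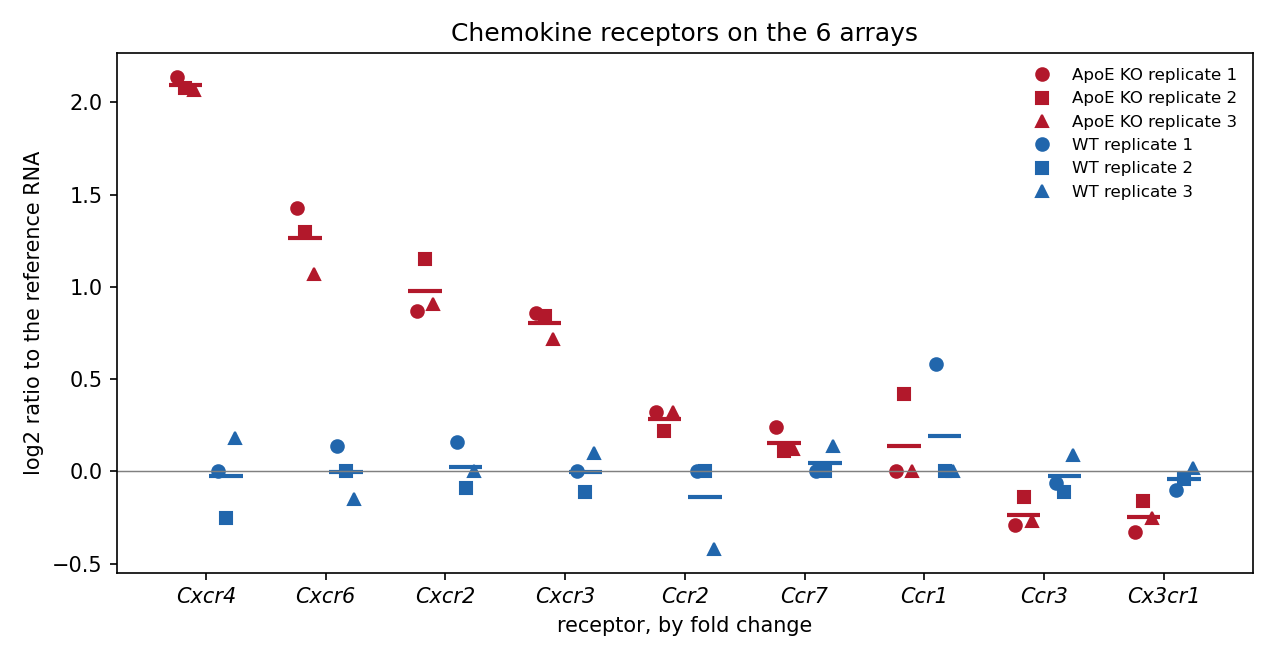
The vertical axis gives the log2 ratio of each aorta's RNA to the common reference, and the horizontal axis lists the 9 receptors by fold change. Points are single arrays (red, 3 ApoE KO, left; blue, 3 WT, right) and short lines are group means. The ApoE KO points of Cxcr4 sit between 2.07 and 2.14, those of Cxcr6, Cxcr2 and Cxcr3 lie above every WT point, and those of Ccr1 and Ccr7 overlap with WT.

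Cxcr4, the receptor for the chemokine Cxcl12, changed most among the 9. Its log2 ratios were 2.14, 2.08 and 2.07 in ApoE KO replicates 1, 2 and 3, against 0.00, -0.25 and 0.18 in WT replicates 1, 2 and 3. The knockout arrays were tightly grouped, and the lowest of them lay far above the highest WT array. The log2 fold change was 2.12 ± 0.12 (SE, n = 3 each), which is 4.33-fold. The 95% interval was 1.81 to 2.42 and limma gave an adjusted p of 0.00124. Of all features, 0.134% had a larger log2 fold change, and 0.160% were called with at least 4-fold higher values. After quantile normalization between arrays the log2 fold change was 1.35, still called at an adjusted p of 0.02.

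Cxcr6, a receptor of effector T cells and natural killer T cells for the membrane-bound chemokine Cxcl16, had log2 ratios of 1.43, 1.30 and 1.07 in the ApoE KO aortas, against 0.14, 0.00 and -0.15 in the WT aortas. The groups were far apart. This gave a log2 fold change of 1.27 ± 0.13 (SE, n = 3 each), or 2.41-fold, with a 95% interval of 0.94 to 1.60, and limma gave an adjusted p of 0.00545. Cxcr6 and Cxcr4 were called with at least 2-fold higher values, as were 1.05% of all features. The probe was dim, with a reference intensity of 0.1 in arbitrary units, where 1 step of the deposited intensity (0.01) equals 0.14 on the log2 scale. The groups differed by 14 such steps. The call was lost after quantile normalization (log2 fold change 0.74, adjusted p 0.0784 in limma).

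Cxcr2, the neutrophil receptor for Cxcl1, Cxcl2 and related chemokines, which monocytes and macrophages of lesions can also carry, was at 0.87, 1.15 and 0.91 in the ApoE KO aortas, against 0.16, -0.09 and 0.00 in the WT aortas. ApoE KO replicate 2 was highest, and again the groups did not overlap. The rise was 1.94-fold, a log2 fold change of 0.95 ± 0.11 (SE, n = 3 each) with a 95% interval of 0.67 to 1.24 and an adjusted p of 0.00768 in limma. Intensities of the groups differed by 15 steps of 0.01. With quantile normalization the log2 fold change was 0.55 and the call was lost (adjusted p 0.229 in limma).

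Cxcr3, the receptor of activated T cells and natural killer cells for the interferon-induced chemokines Cxcl9, Cxcl10 and Cxcl11, was at 0.86, 0.84 and 0.72 in the ApoE KO aortas, against 0.00, -0.11 and 0.10 in the WT aortas. Every knockout array was higher than every WT array. Their difference on the log2 scale was 0.81 ± 0.071 (SE, n = 3 each), or 1.75-fold, with a 95% interval of 0.62 to 1.00, and limma gave an adjusted p of 0.00382. The size of the rise set Cxcr4 apart from the other 3 receptors: its 95% interval began at 1.81, above the upper bound of 1.60 for Cxcr6. The intervals of Cxcr6, Cxcr2 and Cxcr3 overlapped, so their order is not settled.

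**Figure D2:**
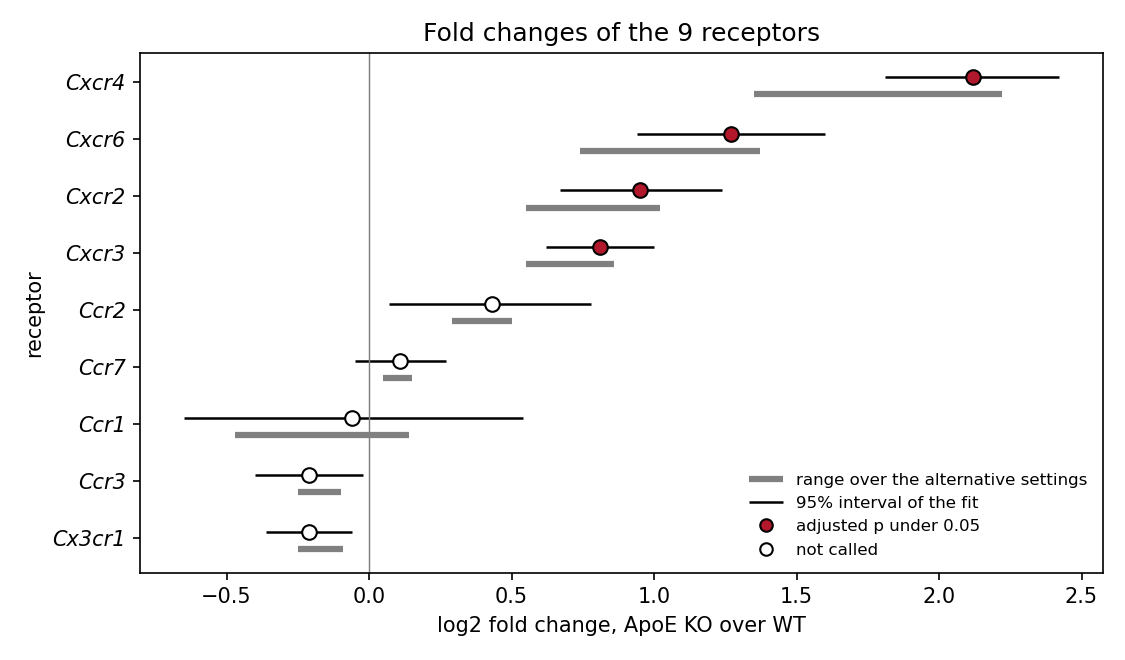
The horizontal axis gives the log2 fold change, ApoE KO over WT, of the 9 receptors (rows). Points with thin black lines are the fit and its 95% interval, red where the adjusted p was under 0.05, and thick grey lines span the values under the other processing settings. The interval of Cxcr4 (1.81 to 2.42) lies right of all others, and the grey line of Ccr1 (-0.47 to 0.14) crosses 0.

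The promoters of the 4 receptors that rose are shown, and shared regulation of these genes was not tested. They were taken from RefSeq on mouse build GRCm38.p6, run from 250 bases before to 50 bases after the gene's start, and read 5′ to 3′ along the gene's strand. They lie at chr1:128592250-128592549 (Cxcr4, minus strand), chr9:123806227-123806526 (Cxcr6, plus strand), chr1:74153744-74154043 (Cxcr2, plus strand) and chrX:101734098-101734397 (Cxcr3, minus strand). Capitals mark matches, on either strand, to any of 8 short motifs described after the sequences.
Cxcr4: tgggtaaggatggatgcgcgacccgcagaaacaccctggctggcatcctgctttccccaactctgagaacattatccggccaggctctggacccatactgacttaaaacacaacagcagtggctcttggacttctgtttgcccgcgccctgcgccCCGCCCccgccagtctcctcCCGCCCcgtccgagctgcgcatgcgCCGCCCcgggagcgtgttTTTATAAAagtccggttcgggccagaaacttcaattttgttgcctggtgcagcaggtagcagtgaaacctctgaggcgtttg
Cxcr6: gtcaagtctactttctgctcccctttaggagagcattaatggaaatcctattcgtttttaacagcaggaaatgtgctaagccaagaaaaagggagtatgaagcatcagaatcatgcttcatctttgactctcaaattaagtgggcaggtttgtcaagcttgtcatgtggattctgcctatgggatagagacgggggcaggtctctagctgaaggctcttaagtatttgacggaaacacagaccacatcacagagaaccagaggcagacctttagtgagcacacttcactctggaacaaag
Cxcr2: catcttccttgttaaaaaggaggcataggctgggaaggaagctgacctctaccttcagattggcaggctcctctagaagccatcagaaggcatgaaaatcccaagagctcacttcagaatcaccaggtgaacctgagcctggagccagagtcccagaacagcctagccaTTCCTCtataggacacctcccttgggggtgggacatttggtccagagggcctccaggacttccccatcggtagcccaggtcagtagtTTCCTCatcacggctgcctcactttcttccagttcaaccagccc
Cxcr3: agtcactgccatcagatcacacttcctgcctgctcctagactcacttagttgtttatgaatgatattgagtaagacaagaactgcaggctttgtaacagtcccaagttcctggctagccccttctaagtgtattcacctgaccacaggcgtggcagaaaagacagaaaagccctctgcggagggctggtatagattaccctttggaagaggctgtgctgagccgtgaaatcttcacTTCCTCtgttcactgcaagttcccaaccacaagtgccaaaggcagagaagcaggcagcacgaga

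The Cxcr4 promoter held 3 GC boxes (GGGCGG), at positions -95, -75 and -50 from the gene's start, and a TATA box (TATAAA) on each strand at -32 and -30, which overlap. A GC box was found in 35.7% and a TATA box in 13.6% of all 32851 promoters of 300 bases. These motifs were added to the search after the letters were seen. The Cxcr2 promoter held the PU.1 core GAGGAA at -81 and 7, and the Cxcr3 promoter held it at -14, each on the strand opposite to the gene's. PU.1 is a transcription factor of myeloid and B cells. Among the 8 receptors with a promoter in the table, 4 held this core (Ccr1 and Ccr3 were the others), as did 28.3% of all promoters. The Cxcr6 promoter had no match to any motif searched. The remaining motifs were AP-1 (TGANTCA, in 7.81% of all promoters), the STAT element (TTCNNNGAA, 8.3%), the kappaB site (0.411%), the hypoxia response core (ACGTG, 19.6%) and the T-box element (TCACACC, 3.98%). Of these, AP-1 and kappaB matched the Ccr3 promoter and no other receptor promoter in the table, with the kappaB match overlapping the PU.1 core there. The GC content was 59.3% for Cxcr4, 44.3% for Cxcr6, 54% for Cxcr2 and 49.3% for Cxcr3, beside a median of 52.7% over all promoters. A match describes the letters and is not a measured binding site.

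The receptors of CC chemokines and the fractalkine receptor gave no call over all features. Ccr2, the receptor for Ccl2 by which classical monocytes leave the bone marrow and enter tissue, was at 0.32, 0.22 and 0.32 in the ApoE KO aortas, against 0.00, 0.00 and -0.42 in the WT aortas. The groups did not overlap, but the WT range came from WT replicate 3 alone. The log2 fold change was 0.43 ± 0.13 (SE, n = 3 each) with a 95% interval of 0.07 to 0.78, and limma gave an adjusted p of 0.12. Its probe had a reference intensity of 0.0433, where 1 step of 0.01 equals 0.3 on the log2 scale, and the groups differed by 1.3 steps. Without WT replicate 3 the log2 fold change was 0.29 with an adjusted p of 0.0294 in limma, on WT values that were all exactly 0. The size of any Ccr2 difference is therefore not resolved by this probe.

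Ccr7, the homing receptor of dendritic cells and naive T cells for Ccl19 and Ccl21, was at 0.24, 0.11 and 0.12 in the ApoE KO aortas, against 0.00, 0.00 and 0.14 in the WT aortas. The groups overlapped. Ccr7 had a log2 fold change of 0.11 ± 0.059 (SE, n = 3 each; 95% interval -0.05 to 0.27; adjusted p 0.308 in limma), a difference of 0.86 steps of intensity. Ccr1, a receptor of monocytes and neutrophils for Ccl3, Ccl5 and Ccl7, was at 0.00, 0.42 and 0.00 in the ApoE KO aortas, against 0.58, 0.00 and 0.00 in the WT aortas. Its reference intensity was 0.0167, so that 1 step equals 0.68 on the log2 scale, and 4 of the 6 values were exactly 0. The log2 fold change of -0.06 ± 0.22 (SE, n = 3 each; adjusted p 0.985 in limma; 95% interval -0.65 to 0.54) leaves a Ccr1 difference undetectable at this signal.

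Cx3cr1, the receptor for the membrane-bound chemokine fractalkine on patrolling monocytes and tissue macrophages, was at -0.33, -0.16 and -0.25 in the ApoE KO aortas, against -0.10, -0.04 and 0.02 in the WT aortas. All knockout values were below all WT values by a small margin. The log2 fold change was -0.21 ± 0.056 (SE, n = 3 each), with a 95% interval of -0.36 to -0.06 and an adjusted p of 0.0831 in limma. Ccr3, the eotaxin receptor of eosinophils, was at -0.29, -0.14 and -0.27 in the ApoE KO aortas, against -0.06, -0.11 and 0.09 in the WT aortas. Here ApoE KO replicate 2 came close to WT replicate 2, and the groups did not overlap. The log2 fold change was -0.21 ± 0.07 (SE, n = 3 each), with a 95% interval of -0.40 to -0.02 and an adjusted p of 0.145 in limma.

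Cx3cr1, Ccr3, Cxcr3 and Cxcr4 had a level of at least 0.5, where rounding is small against the signal (the level is the mean intensity of the aorta and reference channels in arbitrary units). In a limma fit over the 9034 features of that level, Cx3cr1 and Ccr3 were called lower (adjusted p 0.0205 and 0.036). Of those features 24.5% were called lower and 43.4% in either direction. Cxcr4 and Cxcr3 were called higher there (adjusted p 4.27e-06 and 7.59e-05), beside 19.0% of those features. Across the 9034 features the array medians of the log2 ratio were -0.051, -0.046 and -0.051 for ApoE KO, against 0.0, 0.0 and -0.014 for WT. After each array was centred on that median, both lower calls were lost, with log2 fold changes of -0.16 and -0.16 and adjusted p values in limma of 0.0544 for Cx3cr1 and 0.0908 for Ccr3. In the centred fit 16.8% of features were called lower, 23.1% higher and 40.0% in either direction, and Cxcr4 (2.16) and Cxcr3 (0.86) remained called.

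Several leukocyte markers differed between the groups on the same arrays, and their part in the receptor values was not tested. Of 11 macrophage markers 8 rose and 0 fell (6.73% and 8.00% of all features), and at an unadjusted p under 0.05 in limma 9 were higher and 1 lower. The lower one was Itgam, an integrin chain of macrophages and neutrophils, at -0.30, -0.10 and -0.22 in ApoE KO, against 0.00, 0.00 and 0.24 in WT, with all ApoE KO values below all WT values. Its log2 fold change was -0.29 (adjusted p 0.134 in limma, and 0.0248 in the fit of 9034 brighter features). The list had a summed intensity of 160 to 204 in the ApoE KO aortas, against 47.3 to 61 in the WT aortas, most of it from C1qa. Without C1qa the sums were 37.4 to 39.6 in ApoE KO and 15.4 to 18.7 in WT, and Mertk had a level under 0.1. The lowest p values among them belonged to Lyz2 (1.69), C1qc (2.18) and C1qb (1.97). Of 5 genes measured from the monocyte marker list 4 rose, Plac8 (0.97), Chil3 (0.72), Ly6c1 (0.54) and F13a1 (0.35). Which cells of the aorta gave the Ly6c1 signal was not tested. Ly6c2, also on that list, was not measured. The 5 markers had sums of 5.1 to 5.38 in ApoE KO and 3.05 to 3.74 in WT. Ly6c1 was the largest part of these sums. Without Ly6c1 they were 3.02 to 3.29 in ApoE KO and 1.82 to 2.12 in WT. After quantile normalization the calls of all 4 monocyte markers were lost (adjusted p in limma 0.0722 to 0.555). Leaving out 1 array ended the call in 5 of 6 fits for Chil3 and for F13a1, in 4 for Ly6c1 and in 1 for Plac8, the fit without ApoE KO replicate 1.

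Markers of T and natural killer cells, which are known to carry Cxcr3 and Cxcr6, gave no call in limma for any of 10 genes. Among all features 6.73% were called higher and 8.00% lower. At an unadjusted p under 0.05, 2 of the 10 genes were higher and 0 lower. The summed intensity was 3.78 to 4.33 in ApoE KO, against 3.70 to 3.98 in WT, and Cd3d, Cd3g, Cd8a and Ncr1 had levels under 0.1. The lowest p values among them were those of Cd2 (0.54), Cd3g (0.52) and Cd8a (0.15). Of 7 neutrophil markers S100a8 (1.14) and S100a9 (1.17) rose and 0 fell, beside the same shares of all features. All 7 summed to an intensity of 5.27, 7.99 and 5.94 in ApoE KO replicates 1, 2 and 3, against 3.39, 2.89 and 2.87 in WT. Most of it came from S100a9, at 3.85 to 6.06 in ApoE KO and 1.92 to 2.38 in WT. Without S100a9 the sums were 1.42 to 1.93 in ApoE KO and 0.891 to 1.01 in WT. S100a8 was still included there, and it was the only called marker left in that sum. For each remaining marker the ApoE KO and WT values overlapped, and a sum without both genes was not made. ApoE KO replicate 2 was the highest array for the full sum and for Cxcr2, and a link was not tested. It was also the highest array for the macrophage (204), T and natural killer cell (4.33) and B cell (1.07) sums. For the monocyte sum (5.34) and the eosinophil and mast cell sum (0.853) it lay below ApoE KO replicate 1 (5.38 and 1.02). The granule and receptor genes Mpo, Elane, Camp and Csf3r had levels under 0.1 and gave no call. Ngp (0.07) gave no call either. The calls of S100a8 and S100a9 were lost after quantile normalization (adjusted p in limma 0.242 and 0.36) and in 4 of the 6 fits without 1 array, those without ApoE KO replicate 3 or any single WT replicate.

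Eosinophil and mast cell markers, set beside Ccr3, gave no call in limma in either direction for 6 genes. Among all features 6.73% were called higher and 8.00% lower. Of the 6 genes 1 was higher and 0 lower at an unadjusted p under 0.05. Their sums were 0.853 to 1.02 in ApoE KO and 0.765 to 0.803 in WT. Kit carried that difference: without it the other 5 markers summed to 0.389 to 0.397 in ApoE KO and 0.417 to 0.43 in WT. Il5ra, Cpa3 and Mcpt4 had levels under 0.1. Of 6 dendritic cell markers, set beside Ccr7, Itgax (2.57) and Flt3 (0.52) rose and Cd209a (-0.24) fell, beside the same shares of all features. The 6 markers had sums of 21.8 to 24.6 in ApoE KO and 6.95 to 7.18 in WT. Itgax, which macrophages also express, alone made that difference: the other 5 markers summed to 3.59 to 3.62 in ApoE KO and 3.58 to 3.72 in WT, with overlapping groups. Flt3 and Cd209a each lost the call in 5 of the 6 fits without 1 array. Among 5 B cell markers, beside those shares, Pax5 fell (-0.14), a call lost in 5 of the 6 such fits, and 0 rose.

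Chemokines and other ligands of the 9 receptors were measured on the same arrays. Of 24 ligands 14 rose and 0 fell, with a median log2 fold change of 0.74 beside -0.020 for all features, of which 6.73% were called higher. At an unadjusted p under 0.05, 17 were higher and 0 lower. For Ccr2, the ligands Ccl2 (1.84 ± 0.058, SE), Ccl7 (1.81 ± 0.18) and Ccl12 (0.71 ± 0.078) rose, and so did Ccl8 (1.50), a ligand of CCR2 in human. The Ccl12 probe was dim, and its groups differed by 4.2 steps of intensity. Ccl2 was at 1.88, 1.74 and 1.79 in the ApoE KO aortas, against 0.05, -0.10 and -0.05 in the WT aortas. For Ccr1, the ligands Ccl3 (1.91), Ccl5 (0.92), Ccl6 (1.29) and Ccl9 (0.83) rose, while the receptor's own probe was too dim to resolve.

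For Cxcr2, the ligands Cxcl2 (1.58), Cxcl1 (0.86), Ppbp (0.78) and Cxcl5 (0.77) rose, and Cxcl3 (0.47, adjusted p 0.283 in limma) was not called. The Cxcl5 groups differed by 2.6 steps of intensity, on WT values that were all exactly 0. For Cxcr3, Cxcl10 rose by 1.53, at 1.65, 1.46 and 1.02 in the ApoE KO aortas, against 0.23, -0.53 and -0.16 in the WT aortas. Cxcl9 gave no call (0.33, adjusted p 0.495 in limma), with ranges that overlapped, and Cxcl11 was exactly 0 on all 6 arrays. The Cxcl11 probe was dim, with a reference intensity of 0.113, so a difference below 1 step would not show. For Cxcr4, Cxcl12 rose by 0.64 ± 0.092 (SE), at 0.77, 0.49 and 0.71 in ApoE KO and 0.03, 0.08 and -0.07 in WT. Mif, a cytokine that also binds Cxcr4 and Cxcr2, was at 0.11 with no call.

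For Cxcr6, the ligand Cxcl16 was at 0.35, 0.32 and 0.45 in ApoE KO, against 0.00, 0.13 and -0.15 in WT. Its log2 fold change of 0.38 just missed the threshold (adjusted p 0.0505 in limma), at a difference of 3.1 steps of intensity. For Ccr7, Ccl19 had a log2 fold change of 0.45 (adjusted p 0.0546 in limma), with all ApoE KO values above all WT values. Ccl21a was exactly 0 on all arrays, on a probe with a reference intensity of 0.04, where 1 step equals 0.32 on the log2 scale. The fractalkine gene Cx3cl1 was at exactly 0 in all ApoE KO arrays and at 0.00, 0.00 and -0.17 in WT, a difference of 0.37 steps. The eotaxin genes Ccl11 (-0.02) and Ccl24 (-0.05), ligands of Ccr3, showed overlapping groups. Quantile normalization ended 8 of the 14 ligand calls. Leaving out 1 array ended those of Cxcl10 and Cxcl12 in 5 of 6 fits each (adjusted p up to 0.094 and 0.0695) and those of Ppbp and Cxcl5 in 4 each (0.0895 and 0.0698).

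**Figure D3:**
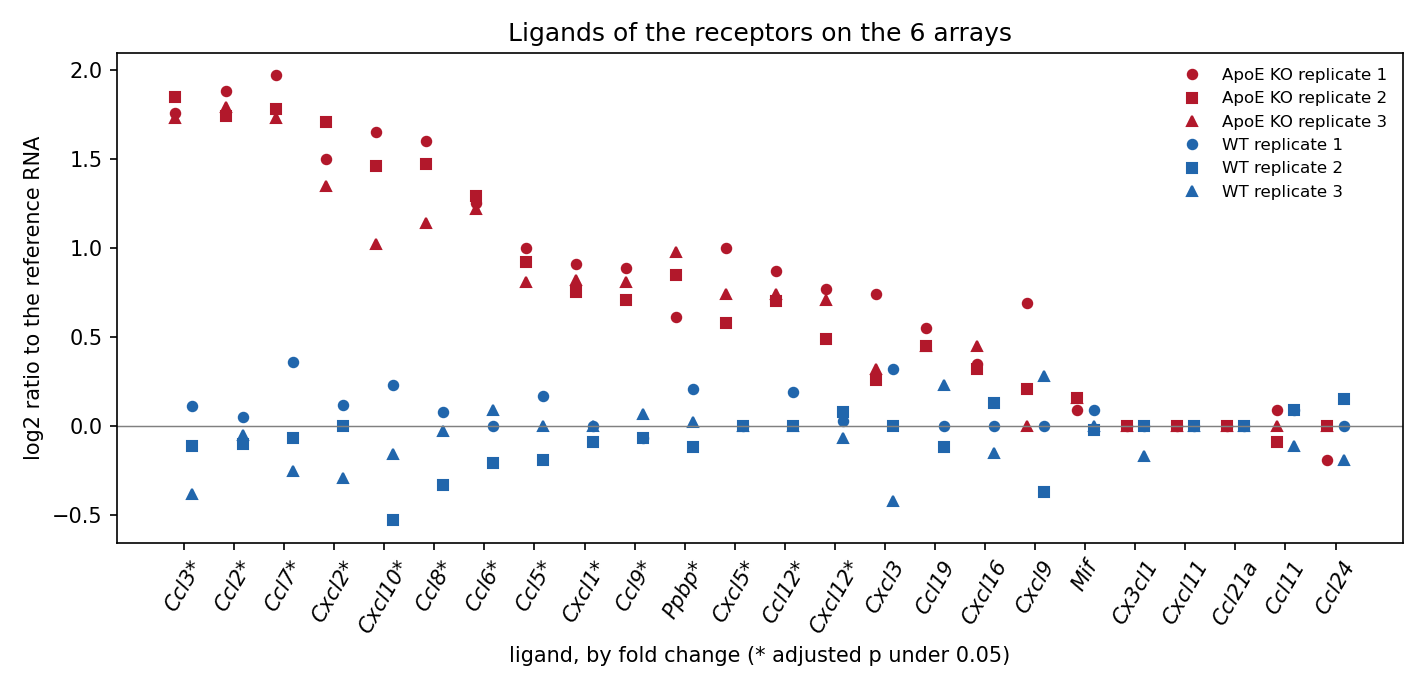
The vertical axis gives the log2 ratio to the common reference for 24 ligands of the receptors, ordered by fold change on the horizontal axis. Points are single arrays (red, ApoE KO; blue, WT), and an asterisk marks an adjusted p under 0.05. Ccl3, Ccl2 and Ccl7 lead with ApoE KO values between 1.73 and 1.97, and Cxcl11 and Ccl21a, both on dim probes, stay at exactly 0.

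Of 17 other chemoattractant receptors, Ackr1 and Cxcr1 rose and 0 fell, beside 6.73% and 8.00% of all features, so the count is near the background. Their median log2 fold change was 0.05, and 2 were higher and 0 lower at an unadjusted p under 0.05 in limma. Ackr1, an atypical receptor of venular endothelium and red cells that binds many chemokines without G protein signalling, was at 0.37, 0.35 and 0.23 in ApoE KO, against 0.04, -0.04 and 0.04 in WT. Cxcr1, the closest relative of Cxcr2 and its neighbour on chromosome 1, was at 0.17, 0.32 and 0.32 in ApoE KO, against 0.00 on all WT arrays, which is 1.6 steps of intensity. Both calls were lost after quantile normalization and in 5 of the 6 fits without 1 array. Ackr3, a scavenger of Cxcl12, was at 0.35 with no call (adjusted p 0.194 in limma).

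Genes that act downstream of the receptors rose in 12 and fell in 1 of 24 measured, beside 6.73% called higher and 8.00% called lower among all features. Their median log2 fold change was 0.28. Pik3r5, the p101 regulatory subunit of phosphoinositide 3-kinase gamma, was at 2.26, 2.24 and 2.27 in ApoE KO, against 0.00, -0.04 and 0.04 in WT, a log2 fold change of 2.25 ± 0.025 (SE, n = 3 each; adjusted p 0.000125 in limma). Vav1 (1.74), an exchange factor for Rac, and Rac2 (1.72), the Rac GTPase of blood cells, also rose. So did the RGS proteins, which switch off G proteins: Rgs1 (1.69), Rgs10 (1.02), Rgs2 (0.73), Rgs16 (0.65) and Rgs18 (0.53). Of the arrestins, Arrb2 rose by 1.06 and Arrb1 by 0.27. Pik3cg, the catalytic subunit, rose by 0.29 on a probe where the groups differed by 0.96 steps. The phospholipase gene Plcb3 fell (-0.25), and the Gi subunit genes Gnai2 (-0.04) and Gnai3 (0.27) and the receptor kinase gene Grk2 (0.09) gave no call. Leaving out 1 array ended the call of Arrb1 in 5 fits, of Plcb3 in 3 and of Rgs18 in 1, the fit without ApoE KO replicate 3. Quantile normalization ended the calls of Arrb1, Rgs2, Rgs16, Rgs18 and Plcb3.

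**Figure D4:**
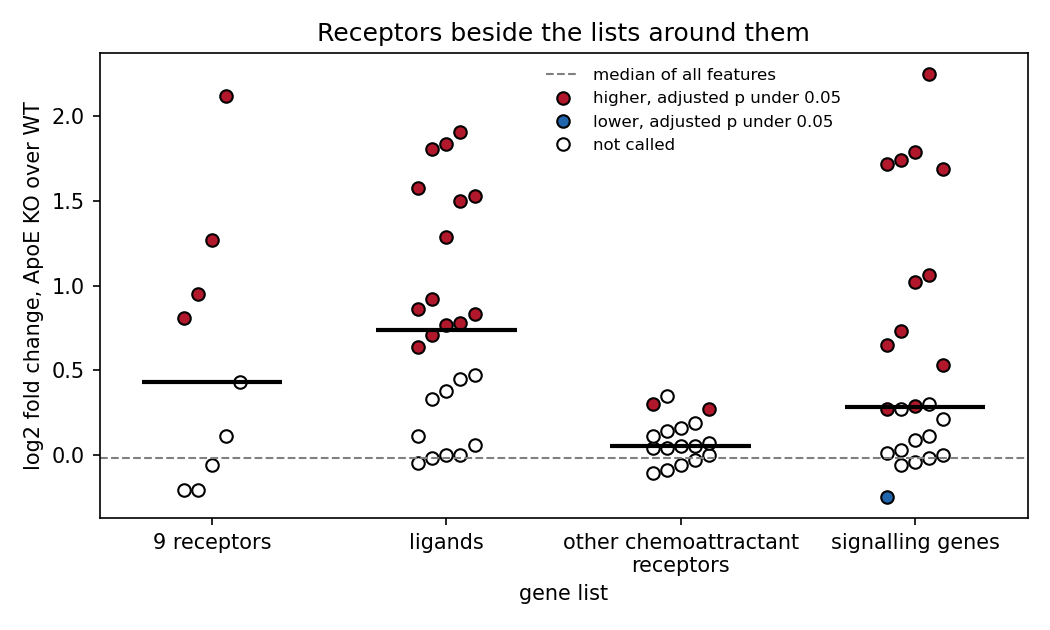
The vertical axis gives the log2 fold change, ApoE KO over WT, and each point is 1 gene of the list named on the horizontal axis (red, called higher; blue, called lower; white, not called). Thick lines are list medians, 0.43 for the 9 receptors, 0.74 for ligands, 0.05 for other receptors and 0.28 for signalling genes, and the dashed line is the median of all features (-0.020). Points are spread sideways only for legibility.

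The features whose values on the 6 arrays lay nearest to each called receptor were found by Euclidean distance of log2 ratios among 7811 or 7812 other named features with a level of at least 0.5. With 6 arrays in 2 groups, such a distance mostly matches the size of the group difference. Nearest to Cxcr4 were C1qc, a chain of complement C1q (distance 0.15), Syngr1, a synaptogyrin (0.18), and Pik3ap1, an adaptor of phosphoinositide 3-kinase (0.20). Nearest to Cxcr6 were Ctsk, cathepsin K (0.20), the homeobox gene Hhex (0.27) and Gusb, lysosomal beta-glucuronidase (0.27). Nearest to Cxcr2 were E2f2 (0.17), Plk2 (0.19) and Ctla2a (0.19), and nearest to Cxcr3 were Unc93b1 (0.08), Slc9a7 (0.09) and Fes (0.10).

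In the RefSeq gene order of GRCm38.p6, Cxcr6, Ccr1, Ccr3 and Ccr2 follow each other on chromosome 9, with 1 other protein gene between Cxcr6 and Ccr1, 1 between Ccr1 and Ccr3 and 0 between Ccr3 and Ccr2. Cx3cr1 lies 53 protein genes away from Cxcr6 on the same chromosome. Along this stretch the log2 fold changes were -0.21 for Cx3cr1, 1.27 for Cxcr6, -0.06 for Ccr1, -0.21 for Ccr3 and 0.43 for Ccr2, of which that of Cxcr6 was called. Cxcr2 and Cxcr4, both called higher, lie on chromosome 1 with 301 protein genes between them.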

How the data were processed

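Groups were taken from the Cy5 genotype label and replicate numbers from the titles. The submitters' processing notes name Feature Extraction 8.5.1.1 (Agilent). How background, dye bias and scale were handled is not stated there. The RNA (100 ng) was amplified before labelling, per the labels' protocols. The authors deposited log10 ratios, aorta RNA over reference RNA. The authors' second deposited table gives intensity in arbitrary units written in steps of 0.01. Of its 18 value columns, 15 were not used and the reference channel of the 3 C57BL6-headed arrays gave the levels. On 17341 dim probes, reference intensity times the WT ratio came to a whole number of steps (within 0.02 of a step, on any of the 3 arrays) for 99.9% of 13709 values other than 0, against 38.7% with the sign turned, which fixed scale and direction. Whether the ratios were centred remains unknown, and all 6 array medians were 0.

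Values were turned into log2, 194 probes that lacked a value on some array were dropped, and the brightest probe of each symbol was kept. Symbols came from the file or from RefSeq (GRCm38.p6): 6982 probes by accession, 16553 by symbol, 2557 by synonym, 3964 with the file's name alone and 9306 with none. Between 35.1 and 57.7% of an array's ratios were exactly 0, in a table of rounded intensities. No detection flags were used. The test was limma's (version 3.58.1, R 4.3.3; lmFit, then eBayes), unblocked, at a Benjamini-Hochberg adjusted p under 0.05 over 35027 features, and the script was tested on simulated data. A summed intensity is the reference intensity times each array's ratio, added over a marker list. Group differences in steps of intensity come from the same products, not from the aorta channel itself. The genes named were all members, the called members of the lists, the 3 lowest p values per marker list and the nearest 3 features per called receptor; others singled out were chosen after their values were seen, and 1 called gene of the signalling list is not reported here. Members and lists were chosen with earlier results of these data known. Endothelial markers rose in 1 of 5 genes and fibroblast markers in 2 of 5, beside 6.73% of all features called higher. The fibroblast list summed to 244 to 272 in ApoE KO and 125 to 140 in WT. Without its largest gene, Lum (1.76), the sums were 126 to 129 and 91.4 to 96.1. The calls of Vwf (endothelial) and Col1a1 (fibroblast) were lost after quantile normalization (adjusted p in limma 0.62 and 0.121). That of Vwf was also lost in 3 fits without 1 array. Cardiac and fat markers gave no call in limma among 5 each (0 at an unadjusted p under 0.05).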

Additional observations from a re-analysis of the deposited data

How the results depend on the processing

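The calls of Cxcr4 held under all 15 alternatives (log2 fold change 1.35 to 2.22), those of Cxcr3 under 14 of 15, and those of Cxcr6 and Cxcr2 under 12 and 11 of 13. Quantile normalization gives every array the same spread of ratios. It left 1651 calls in all (871 higher, 780 lower) of 5158 (2357 and 2801), 2 receptors, 6 of 14 ligands and 0 of 2 other receptors called higher, and 0 signalling genes lower. Replicate numbers did not pair the arrays: same-numbered deviations correlated at 0.078, -0.469 and -0.145. With the replicate block 2582 features were called (1281 higher, 1301 lower), with 2 receptors, 9 ligands and 1 other receptor higher and 0 signalling genes lower; Cxcr2 (adjusted p 0.0874), Cxcr3 (0.0599) and Apoe (0.0681) lost their calls in limma. A level of at least 0.5, which removes dim members, gave 2 receptors higher and 2 lower, 7 ligands and 1 other receptor; there, centring (chosen after seeing the data) turned the split from 1712 higher and 2212 lower to 2091 and 1520, with 2 receptors, 8 ligands and 1 other receptor higher. A level of at least 0.1 gave 1 receptor lower (Cx3cr1, adjusted p 0.0415 in limma) and 1 other receptor higher. Without 1 array in turn, 3516 to 4901 features were called, 1718 to 2075 higher and 1798 to 2826 lower (1798 without WT replicate 2 and 1803 without ApoE KO replicate 3). In these fits receptors called higher numbered 4 to 5, ligands 10 to 12, other receptors 0 to 2 and signalling genes called lower 0 to 1. Ccr1 ran from -0.19 (without ApoE KO replicate 2) to 0.14 (without WT replicate 1) and also changed sign without ApoE KO replicate 1 or 3 (0.01 each); it was -0.47 after quantile normalization. The causes of these changes were not tested.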
